A study of Mus musculus with 30 samples.

Results

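Protein kinase A is the kinase that carries most of the intracellular signal of cyclic AMP, and the 6 genes Prkaca, Prkacb, Prkar1a, Prkar1b, Prkar2a and Prkar2b encode its catalytic and regulatory subunits. Open chromatin at these genes was taken from ATAC-seq of mouse ventral hippocampus, in which a transposase inserts sequencing adapters into accessible DNA. A peak belonged to a gene if it overlapped the RefSeq body of the gene or the 10 kb on either side of it. This gave 204 of the 257149 peak regions of the series, namely 77 for Prkar1b, 33 for Prkar2b, 29 for Prkacb, 26 for Prkar2a, 23 for Prkar1a and 16 for Prkaca, and all 204 passed the filter on low counts. Of these, 165 overlapped the gene itself, 14 also overlapped another coding gene and 15 lay closer to another gene. The genes were selected on the acute change of their peaks, since Prkar2a held peaks of both directions after acute restraint, so every acute value below is a description of that choice and not a test of it.

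The holoenzyme pairs catalytic subunits with a dimer of regulatory subunits, which keep the kinase inactive until they bind cyclic AMP. The regulatory subunits also set where the kinase sits, since A-kinase anchoring proteins bind them and tether the enzyme near receptors, channels and the cytoskeleton. In the hippocampus the pathway is known for its part in lasting synaptic plasticity and memory, and among its nuclear targets is CREB, a transcription factor that binds the cyclic AMP response element.

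The libraries came from 30 mice, for which the sources used here give no strain or age. Mice were restrained in a tube every day for 10 days (chronic) or only lifted as for restraint (handled), and housed alone. Tissue was then collected either without any acute stress (0 min) or 45 min into a new restraint. The groups were handled at 0 min (8 mice, 4 females and 4 males), handled at 45 min (7 mice, 3 females and 4 males), chronic at 0 min (8 mice, 4 females and 4 males) and chronic at 45 min (7 mice, 4 females and 3 males). Each library was 1 ventral hippocampus, with all its cell types together, and the 4 labelled batches each held all 4 groups. A change in the share of a cell type and a change in accessibility within its cells cannot be told apart in such libraries.

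Total counts in peaks ran from 26104576 to 55294838 per library, and the top 1% of peaks by coverage took a median of 20.5% to 20.6% of them in each group. Values are given as CPM, the count of a peak relative to its library total after TMM scaling, and levels are compared between genes per kb of peak. As a check of the tissue, peaks at the ends of the excitatory neuron genes Slc17a7 and Camk2a had 7.97 and 6.90 CPM per kb, against a median of 3.41 over all 26740 gene-end peaks. The inhibitory neuron gene Gad1 had 4.21 and the myelin gene Mbp 4.87. Astrocyte genes had 3.82 (Gfap) and 2.60 (Slc1a3), microglial genes 3.28 (Csf1r), 2.62 (Cx3cr1) and 2.07 (P2ry12), and the endothelial gene Cldn5 2.40, while Aqp4 and Pecam1 had no gene-end peak. Of 4 genes of other tissues only Myh6 had one, at 2.11. One library, that of handled animal 45 (female, 0 min), had 42.1% of its counts within 1 kb of a gene end, where the other 29 libraries had 37.7% to 40.3%. It was also the highest of its group at the start peaks of all 6 genes.

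The starts of the subunit genes are shown first, because the most accessible peaks of 5 of the 6 genes lie over them. RefSeq promoter windows (GRCm38.p6, 250 bases before to 50 bases after a start) were available for 19 starts of the 6 genes, and 18 of the 19 starts lay in a peak, beside 54.5% of the starts of 32851 windows of all genes. The exception was an internal Prkacb start, 1068 bp from the nearest peak. Many of the 18 shared a peak, with the 6 Prkar1a starts in 1 peak and the 5 Prkar1b starts in 2. They are therefore not 18 separate observations. In the 4 windows printed, capitals mark each TGACG, the core of the cyclic AMP response element, or its reverse complement CGTCA. They were taken for Prkar2a, which the acute results turn on, for both catalytic genes, and for the Prkar1a start with the complete element.
Prkar2a (chr9:108691893-108692192, + strand): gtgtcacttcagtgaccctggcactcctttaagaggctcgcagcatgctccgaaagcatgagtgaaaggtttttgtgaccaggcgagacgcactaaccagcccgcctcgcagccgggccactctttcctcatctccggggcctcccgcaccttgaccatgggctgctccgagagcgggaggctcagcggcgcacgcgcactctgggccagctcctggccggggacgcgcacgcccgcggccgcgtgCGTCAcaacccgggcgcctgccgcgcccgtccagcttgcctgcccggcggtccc
Prkar1a (chr11:109650699-109650998, + strand): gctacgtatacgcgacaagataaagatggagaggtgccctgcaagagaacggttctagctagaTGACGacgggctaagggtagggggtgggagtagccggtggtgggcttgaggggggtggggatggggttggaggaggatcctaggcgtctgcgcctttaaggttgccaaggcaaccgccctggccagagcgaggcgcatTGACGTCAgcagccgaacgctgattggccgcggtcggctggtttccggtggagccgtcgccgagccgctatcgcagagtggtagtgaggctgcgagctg
Prkaca (chr8:83972728-83973027, + strand): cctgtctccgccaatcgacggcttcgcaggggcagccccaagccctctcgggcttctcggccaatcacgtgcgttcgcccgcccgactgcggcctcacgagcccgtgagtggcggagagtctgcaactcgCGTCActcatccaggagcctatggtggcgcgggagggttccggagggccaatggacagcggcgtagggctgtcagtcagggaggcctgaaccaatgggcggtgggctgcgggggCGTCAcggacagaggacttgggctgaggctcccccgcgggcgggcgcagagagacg
Prkacb (chr3:146812897-146813196, - strand): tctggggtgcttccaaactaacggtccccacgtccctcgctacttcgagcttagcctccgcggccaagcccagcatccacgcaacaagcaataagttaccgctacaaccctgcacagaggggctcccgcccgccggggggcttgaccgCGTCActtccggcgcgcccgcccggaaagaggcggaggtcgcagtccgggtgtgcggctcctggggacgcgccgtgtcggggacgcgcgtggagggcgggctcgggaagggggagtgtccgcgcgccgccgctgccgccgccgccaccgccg
The letters TGACG or CGTCA occurred in 7 of the 19 windows, against 20.8% of all windows, and 2 of the 7 were overlapping Prkar1a windows that hold the same matches. Prkar2b was the gene with none in its windows. In Prkar2a they began 4 bases before the start (position -4), and in Prkaca at positions -120 and -6. Prkacb had them at -102. The full palindrome TGACGTCA, found in 1.79% of all windows, was present in Prkar1a alone, at -49 in the window shown and again in a second Prkar1a window that overlaps it, and it contains both core forms. These are matches of letters and say nothing of binding.

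The peak over the first start of each gene was open in every library. The catalytic gene Prkaca had the highest level per kb, 12.03 ± 1.27 CPM per kb (SD, n = 30), followed by Prkar1a with 11.5 ± 1.24 and Prkar2b with 10.7 ± 1.29. Prkacb had 8.54 ± 0.983, Prkar2a 6.24 ± 0.431 and Prkar1b 5.77 ± 0.338. Prkaca exceeded Prkar1a in 23 of 30 libraries and Prkar1a exceeded Prkar2b in 27, so these neighbours lay within about 1 SD of each other. The step from Prkar2b to Prkacb and the step from Prkacb to Prkar2a held in 30 of 30 libraries, and the step from Prkar2a to Prkar1b in 29. Among all gene-end peaks the 6 levels stood between percentiles 76.5 (Prkar1b) and 97.1 (Prkaca). The order holds per kb only, since the peaks differed in width, with 10517 bp for Prkar1b, 4271 bp for Prkaca and 1486 bp for Prkacb. The Prkar1b peak also covered Dnaaf5, so its counts cannot be assigned to Prkar1b alone. In CPM not divided by width the Prkar1b peak stood above that of Prkaca, at 60.3 against 52.4 on average in handled mice at 0 min.

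**Figure D1:**
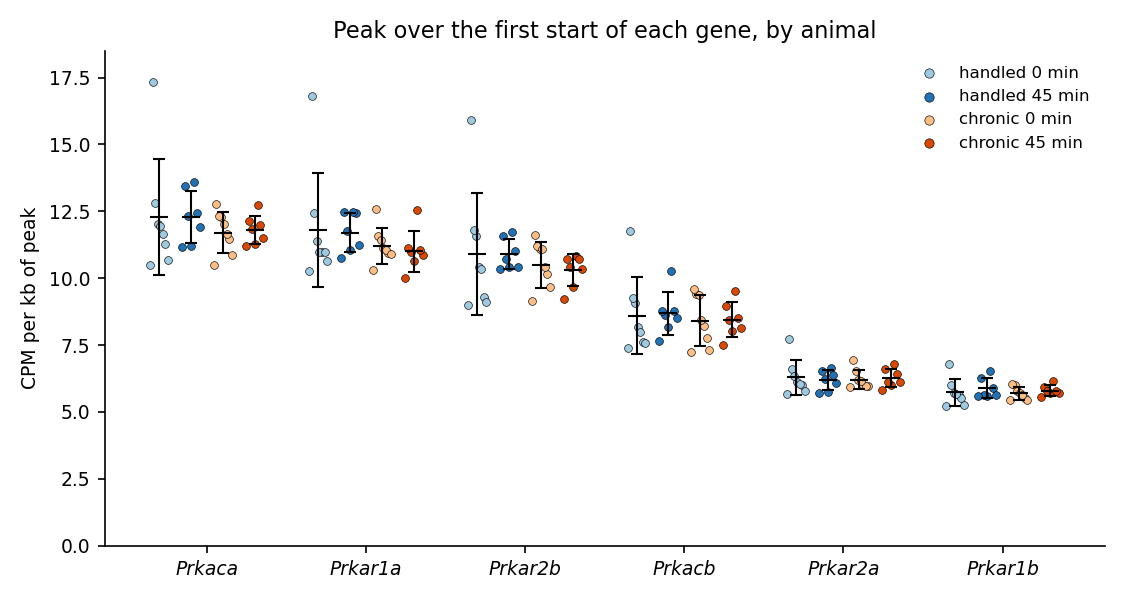
CPM per kb of the peak over the first start of each gene (vertical axis) by gene, with 1 point per animal, colours for the 4 groups, and mean ± SD in black. Within a gene the 4 groups overlap, and the highest handled point at 0 min, animal 45, stands above the others, at 17.3 CPM per kb for Prkaca.

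The genes differed in how their other peaks were laid out. Prkaca, for the alpha catalytic subunit, is short (chromosome 8, 83972978 to 83996444, plus strand), and a single peak of 14465 bp at 6.65 CPM per kb covered its far end together with Samd1 and 1700067K01Rik, so its counts cannot be assigned to Prkaca. Prkacb, for the beta catalytic subunit (chromosome 3, 146729579 to 146812946, minus strand), had a second open stretch over an internal start, centred 42.3 kb into the gene, with 5.05 CPM per kb. Prkar1a (chromosome 11, 109649023 to 109669663, plus strand) held all 6 of its starts in 1 peak of 4046 bp. Prkar1b (chromosome 5, 139017304 to 139150703, minus strand) was open over much of its length, with 68 peaks within the gene, and its first peak also covered Dnaaf5. In Prkar2b (chromosome 12, 31958450 to 32061648, minus strand) the highest level per kb, 21.0, belonged to a peak past its far end over the neighbouring gene Hbp1.

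**Figure D2:**
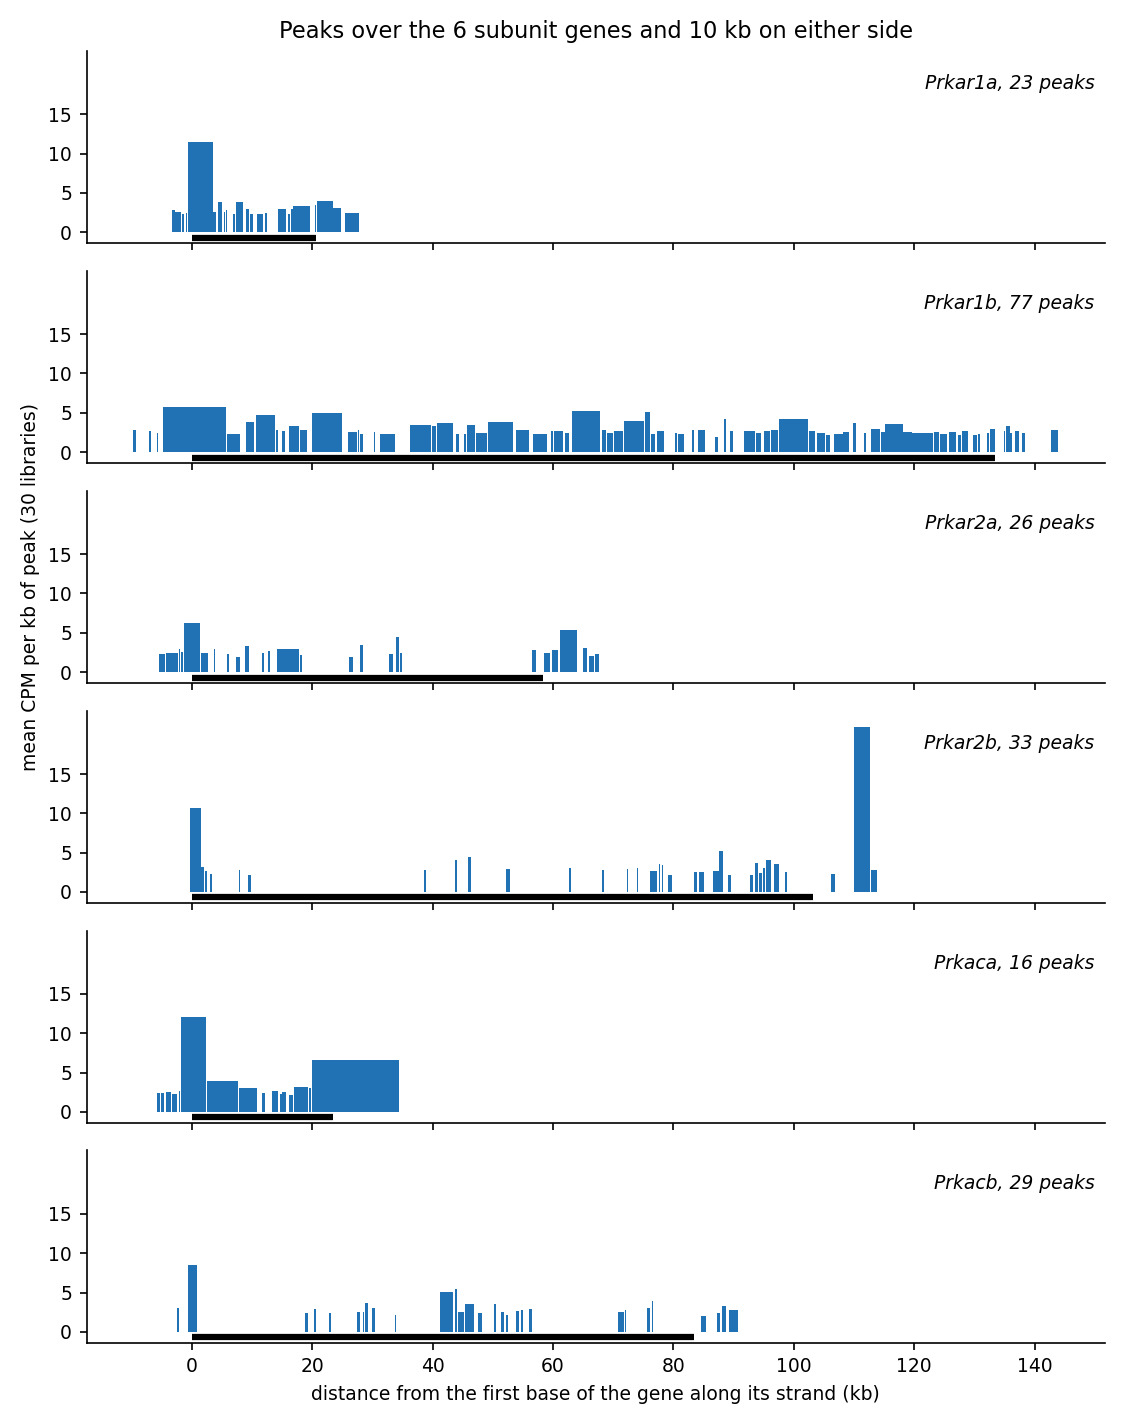
Mean CPM per kb of each peak over 30 libraries (vertical axis) against the distance from the first base of the gene along its strand (horizontal axis, kb), with bars as wide as the peaks and the gene body as a black line. Start peaks at 0 kb are the highest of the gene except in Prkar2b, where the peak over Hbp1 at 111 kb reaches 21.0.

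After acute restraint, 2 of the 204 peaks were called in the average over both histories (edgeR, adjusted p under 0.05), where 0.116% of all peaks were called, and both belonged to Prkar2a. One was higher and the other lower at 45 min, beside 0.0731% and 0.0432% of all peaks, and DESeq2 also called 2 (0.170% of all peaks). Prkar2a encodes the type II alpha regulatory subunit, a form that is bound by many anchoring proteins. An intragenic peak lost accessibility and a larger peak past the gene end gained it. The other 5 genes had no called peak. Since this contrast chose the genes, the count is given without a reading against the background.

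The intragenic peak (chromosome 9, 108726001 to 108726478, 478 bp) lay 34.1 kb into Prkar2a, at 83.3 counts per library on average. Whether it is exonic or intronic was not determined, since exons were not used here. In handled mice at 0 min its lowest, median and highest values were 2.10, 2.36 and 4.19 CPM, and at 45 min they were 1.25, 1.72 and 2.04 CPM. In chronic mice they were 1.87, 2.35 and 2.78 CPM at 0 min and 1.32, 1.81 and 2.09 CPM at 45 min. All 7 handled mice at 45 min were below the lowest handled mouse at 0 min, whereas 4 of 7 chronic mice at 45 min were below the lowest chronic mouse at 0 min. The log2 change was -0.49 ± 0.09 (SE) averaged over histories, -0.66 ± 0.13 in handled mice and -0.32 ± 0.13 in chronic mice, and only the handled change was called within a history (0.0109% of all peaks called in handled and 0.00272% in chronic mice).

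The larger peak (chromosome 9, 108753224 to 108756107, 2884 bp) began 2780 bp past the end of Prkar2a and 27656 bp from Ip6k2, the next gene, at 614 counts per library on average. Handled mice at 0 min had 11.9, 13.7 and 17.9 CPM as lowest, median and highest, and 14.7, 16.6 and 18.6 CPM at 45 min. Chronic mice had 12.6, 15.3 and 16.2 CPM at 0 min and 14.5, 16.4 and 20.7 CPM at 45 min. The groups overlapped in both histories, with 1 of 7 handled and 4 of 7 chronic mice at 45 min above the highest mouse of their history at 0 min. All 14 mice at 45 min were above the median of the 16 mice at 0 min, 14.3 CPM. The log2 change was 0.22 ± 0.05 averaged over histories, 0.25 ± 0.07 in handled and 0.20 ± 0.07 in chronic mice.

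**Figure D3:**
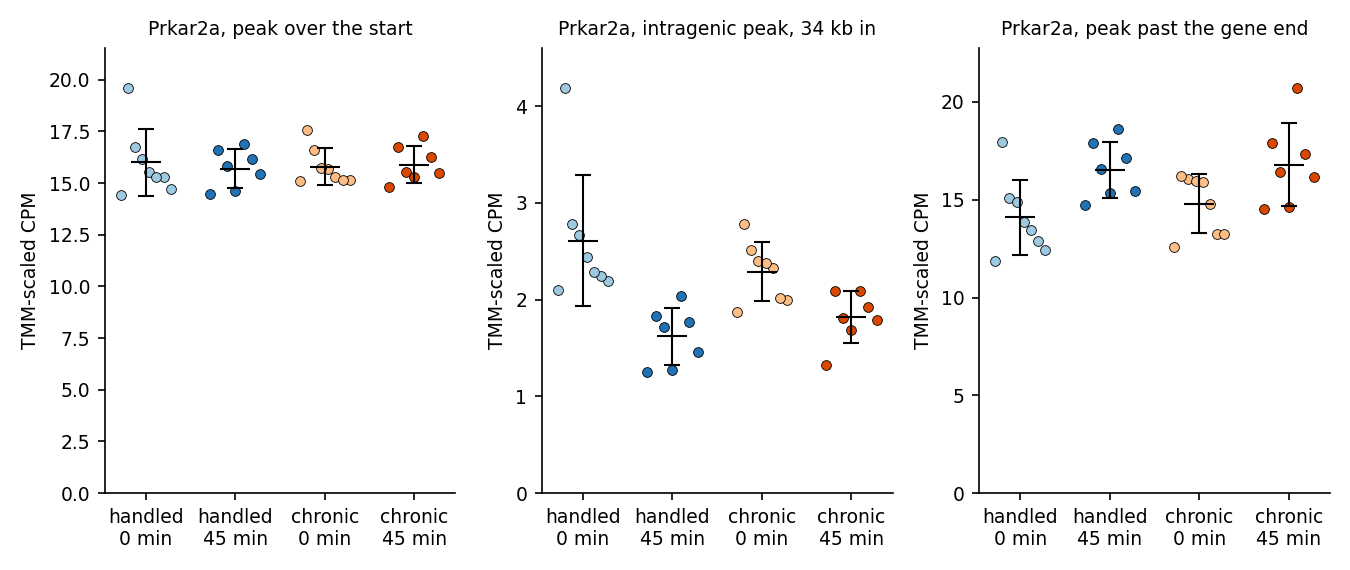
TMM-scaled CPM (vertical axis) of 3 Prkar2a peaks in the 4 groups, with 1 point per animal and mean ± SD in black. At the intragenic peak all 14 mice at 45 min lie below the 0 min median of 2.35 CPM, at the peak past the gene end all 14 lie above 14.3 CPM, and at the start peak the groups overlap.

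Neighbouring Prkar2a peaks had smaller changes of the same sign. On either side of the intragenic peak the averaged log2 changes were -0.16 ± 0.10 and -0.25 ± 0.12, and around the peak past the gene end they were 0.08 ± 0.08 and 0.17 ± 0.08 before it and 0.16 ± 0.09 and 0.13 ± 0.09 after it. The start peak of Prkar2a was at 0.00016 ± 0.044. At the edge of the 10 kb window the outermost peaks inside had -0.04 ± 0.09 before the gene and -0.0042 ± 0.097 past it, and the first peaks outside had -0.04 ± 0.13 and 0.03 ± 0.14.

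**Figure D4:**
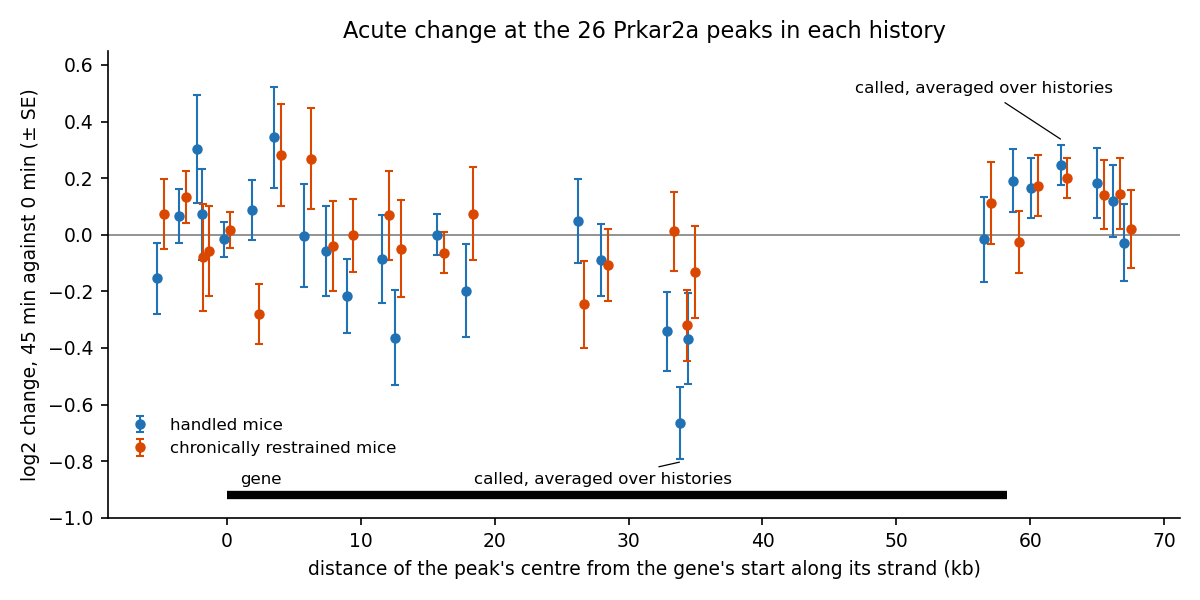
Log2 change from 0 min to 45 min with its SE (vertical axis) at the 26 Prkar2a peaks against the distance of the peak's centre from the start of the gene (horizontal axis, kb), in handled and in chronic mice. The lowest point is the intragenic peak at 34.1 kb in handled mice (-0.66), and the peaks between 60 and 67 kb lie mostly above 0.

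Each batch gave a lower value at 45 min for the intragenic peak and a higher value for the peak past the gene end. Within batches 1 to 4 the intragenic peak differed between times by -0.52, -0.37, -0.38 and -0.74 log2 CPM. The peak past the gene end differed by 0.04, 0.31, 0.34 and 0.22. Batch 4 held only 1 mouse in each 45 min group, and its handled mice at 0 min include animal 45. Without animal 45 the changes were -0.45 ± 0.09 and 0.24 ± 0.04, and the handled change of the peak past the gene end (0.29 ± 0.06) was then called too. The call at the intragenic peak ended without batch 1 (-0.46), and the call at the peak past the gene end ended without batch 2 (0.20) or batch 3 (0.18) and without sex and batch in the model (0.21), while either sex alone called no peak of the 6 genes.

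Comparisons of history and of sex, which the choice of genes did not use, gave no call at the 2 Prkar2a peaks. For chronic restraint averaged over times the intragenic peak had a log2 difference of -0.02 ± 0.09 (edgeR, adjusted p = 0.991) and the peak past the gene end 0.05 ± 0.05 (edgeR, adjusted p = 0.941). Females against males gave 0.13 ± 0.09 (edgeR, adjusted p = 0.949) and -0.03 ± 0.05 (edgeR, adjusted p = 0.982). The acute change differed between females and males by 0.03 ± 0.18 and by -0.10 ± 0.10 (edgeR, adjusted p = 1 for both). Between histories the acute change of the intragenic peak differed by 0.34 ± 0.18, smaller in size in chronic mice. This difference did not pass (edgeR, unadjusted p = 0.0574, adjusted p = 1), so the handled call and the missing chronic call are not shown to differ. It is also not fully independent of the handled change, which is part of the contrast that chose the genes.

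The other regulatory genes had no called peak in the acute comparison, though not all of their changes were smaller than the one past the Prkar2a gene end. Prkar2b, for the type II beta subunit, had 25 of 33 peaks with a negative averaged change and a median of -0.06, where 125954 of the 257143 peaks tested were positive with a median of -0.0025. Its lowest was a peak 62.8 kb into the gene (chromosome 12, 31998612 to 31999022), where handled mice went from 1.48 ± 0.44 CPM at 0 min (SD, n = 8) to 1.06 ± 0.166 CPM (n = 7) and chronic mice from 1.38 ± 0.214 (n = 8) to 1.08 ± 0.21 (n = 7). The change of -0.41 ± 0.11 was not called, and 13 of 14 mice at 45 min were below the 0 min median. Because this contrast chose the genes, the share of negative Prkar2b peaks is given without a reading against all peaks.

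Prkar1b, for the type I beta subunit of neurons, had 51 of 77 peaks with a positive averaged change and a median of 0.03. The peak with the smallest p lay 126 kb into the gene (chromosome 5, 139023785 to 139024906). Handled mice went from 2.65 ± 0.474 CPM at 0 min (SD, n = 8) to 3.14 ± 0.281 CPM (n = 7), and chronic mice from 2.60 ± 0.226 (n = 8) to 3.14 ± 0.268 (n = 7). The change of 0.24 ± 0.07 was not called, and all 14 mice at 45 min were above the 0 min median of 2.61 CPM. Prkar1a, the type I alpha subunit, had 12 of 23 positive peaks and changes between -0.15 and 0.16.

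Of the catalytic genes, Prkacb had 23 of 29 peaks with a negative averaged change and a median of -0.06. Its lowest value, -0.40 ± 0.14, came from a shallow peak of 23.3 counts per library within the gene and was not called. Prkaca had 8 of 16 positive peaks, and its lowest value, -0.38 ± 0.14, came from a peak of 22.5 counts per library that lies 575 bp from Asf1b. At the 9 distinct peaks that covered a RefSeq start of any of the 6 genes the averaged acute changes lay between -0.06 and 0.03, none called. Over all 204 peaks 97 were positive and 107 negative with a median of -0.0040, and 26 had an unadjusted p under 0.05 (10 higher and 16 lower, 12.7%) where 7.17% of all peaks did. Since this contrast chose the genes, the higher share is partly built into that choice and is not read as a result.

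**Figure D5:**
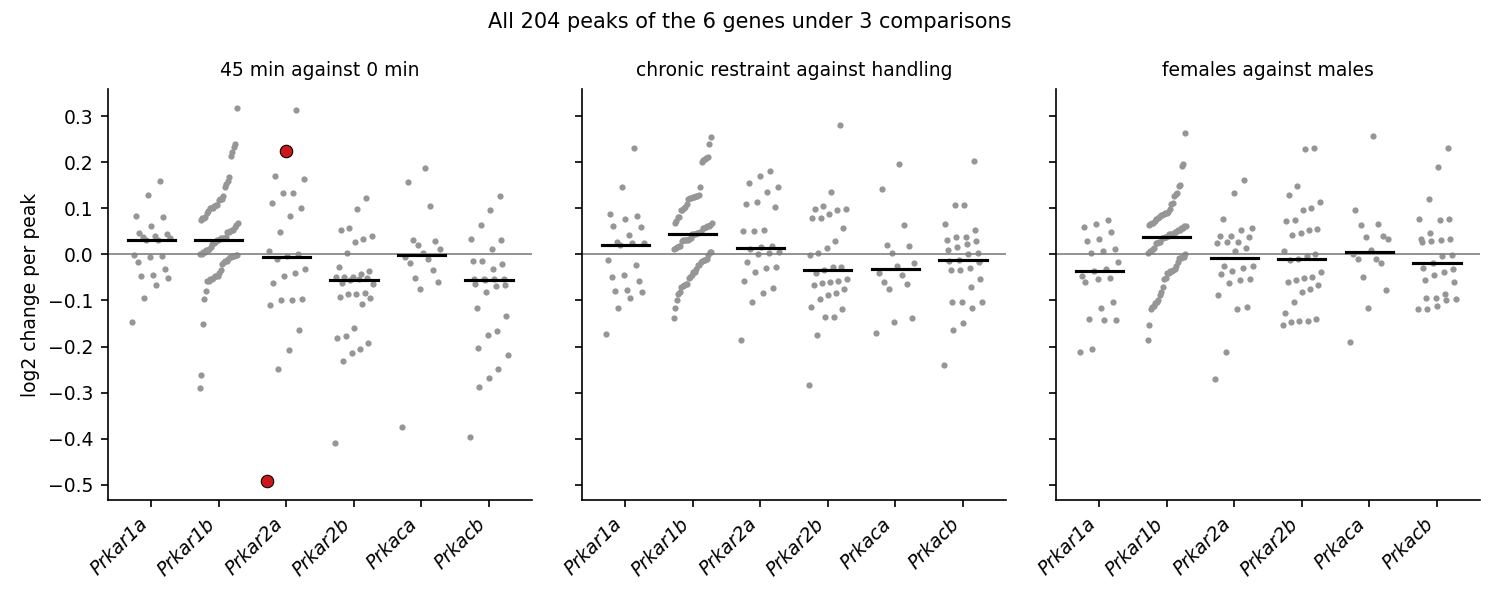
Log2 change of each of the 204 peaks (vertical axis) by gene in the averaged acute comparison, the averaged comparison of chronic restraint with handling, and females against males, with black lines for medians and red points for called peaks. Only the 2 Prkar2a peaks in the acute comparison are red, at -0.49 and 0.22.

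A history of chronic restraint, which had no part in choosing the genes, was followed by no called peak. Averaged over times, 0 of 204 peaks were called by edgeR and by DESeq2 (0% of all peaks by edgeR, 0.000389% by DESeq2). At an unadjusted p under 0.05 there were 8 peaks by edgeR (6 higher and 2 lower in chronic mice, 3.92%, against 5.44% of all peaks) and 9 by DESeq2. At 0 min alone and at 45 min alone edgeR and DESeq2 again called 0 of 204, where both called 0% of all peaks, with 9 and 7 peaks at an unadjusted p under 0.05 by edgeR (4.60% and 3.78% of all peaks) and 8 and 9 by DESeq2. The start peaks of the 6 genes differed by -0.08 to 0.00 on the log2 scale in the average, with SEs of 0.04 to 0.05.

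The smallest p of the history comparisons belonged to Prkar2b at 0 min, at a peak 89.3 kb into the gene (chromosome 12, 31972020 to 31972602, 50.5 counts per library). Handled mice had 1.12, 1.46 and 2.14 CPM as lowest, median and highest, and chronic mice had 0.754, 0.984 and 1.31 CPM, so the groups overlapped. The log2 difference was -0.61 ± 0.14 (edgeR, unadjusted p = 4.53e-05, adjusted p = 0.997). At 45 min the medians were 1.34 CPM in handled and 1.32 CPM in chronic mice, and the log2 difference was 0.04 ± 0.15 (edgeR, adjusted p = 1). The difference between those 2 differences was 0.65 ± 0.20 (edgeR, unadjusted p = 0.00188, adjusted p = 1) and did not pass either. For Prkar2a the smallest p in the average was at a peak 3.3 kb before the start, with 4.64 ± 0.688 CPM (SD, n = 15) in handled and 5.23 ± 0.626 in chronic mice and a log2 difference of 0.18 ± 0.07 (edgeR, adjusted p = 0.897).

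Whether the acute change depended on the history was tested at every peak, and 0 of 204 were called by edgeR and by DESeq2, as were 0% of all peaks. At an unadjusted p under 0.05 there were 6 by each tool (2.94%, against 3.03% of all peaks by edgeR).

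Between the sexes 0 of 204 peaks were called by edgeR and by DESeq2, where 0.0350% of all peaks were called by edgeR and 0.0412% by DESeq2. Most of those lay on the sex chromosomes, since 0.00157% of autosomal peaks were called, and the 6 genes are autosomal. Unadjusted p-values under 0.05 were found at 8 peaks by edgeR (6 higher and 2 lower in females, 3.92%, against 5.37% of all peaks) and at 7 by DESeq2. The smallest belonged to a Prkar1b peak 73.5 kb into the gene, with 12.6 ± 0.847 CPM in males and 13.8 ± 0.591 CPM in females (SD, n = 15 each). Its log2 difference was 0.13 ± 0.04 (edgeR, adjusted p = 0.771), and the ranges, 11.4 to 14.2 CPM in males and 13.0 to 14.7 CPM in females, overlapped. The acute change differed between females and males at 0 of 204 peaks by edgeR, where 0.000389% of all peaks were called, with 9 at an unadjusted p under 0.05 (5 higher and 4 lower, against 3.72% of all peaks).

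The rest of the cyclic AMP pathway was described from 5 lists of 47 genes with 1823 peaks. In the averaged acute comparison 3 of these peaks were called (2 higher and 1 lower, 0.165%, beside 0.116% of all peaks), and the median change was -0.0037. Among 10 genes of adenylyl cyclases and Gs proteins, which make cyclic AMP, 1 of 485 peaks was called. It belonged to the cyclase gene Adcy5 (chromosome 16, 35182504 to 35184269) and went from 5.59 ± 0.685 to 6.86 ± 0.773 CPM in handled mice (SD, n = 8 and 7) and from 5.65 ± 0.411 to 6.86 ± 0.506 CPM in chronic mice, a log2 change of 0.30 ± 0.06. Of 15 phosphodiesterases, which break cyclic AMP down, 1 of 654 peaks was called, at Pde1c (chromosome 6, 56168851 to 56169237), with 1.27 ± 0.29 and 0.838 ± 0.202 CPM in handled and 1.04 ± 0.179 and 0.682 ± 0.117 CPM in chronic mice, a change of -0.60 ± 0.12.

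Of 7 other effectors and CREB factors, 1 of 243 peaks was called, at Rapgef3, which encodes the exchange factor Epac1 that cyclic AMP activates apart from the kinase (0.30 ± 0.07). The 3 inhibitor genes Pkia, Pkib and Pkig had 0 of 54 peaks called by edgeR, and the 12 anchoring protein genes had 0 of 387. At an unadjusted p under 0.05 there were 1 higher and 5 lower inhibitor peaks (11.1%) and 3 higher and 24 lower anchoring protein peaks (6.98%). Of all peaks tested 7.17% had such a p, 7988 higher and 10450 lower. The anchoring protein share over both directions was near that value, while its split leaned further to lower peaks, which was not tested. For chronic restraint averaged over times 0 of the 1823 peaks were called by edgeR (0% of all peaks), with 49 higher and 49 lower at an unadjusted p under 0.05 (5.38%, against 5.44% of all peaks). Females against males gave 0 called by edgeR (0.0350% of all peaks), with 40 higher and 47 lower at an unadjusted p under 0.05 (4.77%, against 5.37% of all peaks).

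Peaks elsewhere in the genome whose levels varied most like the 2 Prkar2a peaks were taken by Pearson's r of log2 CPM over the 30 libraries after removal of sex and batch means. For the intragenic peak these had as nearest genes Ppp2r2b (r = 0.875), Mia2 (0.843), Fam169a (0.823), Car8 (0.815) and Syne1 (0.814). Their averaged acute changes were all negative, from -0.31 to -0.58. For the peak past the gene end they were Trim35 (0.861), Tmem54 (0.849), Gm4868 (0.827), Mchr1 (0.825) and Slc35c2 (0.822), with acute changes from 0.14 to 0.28. The difference between the 2 times was not removed, which moves such correlations. The shared sign of the acute changes is therefore partly built into the choice of these peaks. The peak past the gene end also had r = 0.452 with the total count and 0.501 with the top 1% share. For the intragenic peak these were 0.108 and 0.108. The part of depth in these values was not tested.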

How the data were processed

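Raw counts per peak region were deposited by the authors for 1 set of regions shared by all libraries. Trimmomatic, Bowtie2, Picard, Genrich 0.6.1 and the build GRCm38 are named per the submitters' processing notes. How regions were merged and counted is not given in the sources used here. The table held 2 columns that match no sample, and these were not used.

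Peaks were assigned to RefSeq genes (GRCm38.p6) with GenomicRanges 1.54.1 in R 4.3.3. Counts were fitted in edgeR 4.0.16 over all 30 libraries (filterByExpr, TMM, robust quasi-likelihood F-test) with group, sex and batch, and p-values were adjusted by Benjamini-Hochberg over 257143 peaks, with a call at 0.05. The sex difference of the acute change came from a model of group by sex cells with batch. DESeq2 1.42.0, other scalings, filters, covariates, windows of 0, 2 and 50 kb, and fits without animal 45, without each batch or with 1 sex were alternatives. The fit was tested on simulated data. Each library is 1 animal, so p-values measure the spread between animals. The precision of a peak follows its counts, from 16.1 to 3795 per library over the 204 peaks (median 66.0).

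The genes, lists and rules were chosen with earlier results of these data known. By rule, the text could name for each gene the gene-end peak with the most counts, the peaks of smallest p in the acute, history and sex comparisons, and every called peak. Peaks over RefSeq starts, the Prkar2a neighbours, the Prkar2b peak over Hbp1 and the motifs were chosen after values were seen. For Prkaca the gene-end rule gave the 14465 bp peak, so start peaks replaced it in the order of levels.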

Additional observations from a re-analysis of the deposited data

Results flagged for a closer look

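In groups of 7 or 8 animals, 10 of 104 sets of values (26 named peaks by 4 groups) had 1 animal whose gap to its nearest neighbour was a large share of the group's range by Dixon's ratio. Chance flags about 1 in 20. Of the 10, 6 were the handled 0 min library of animal 45, each time the highest. It had 74.0 CPM at the Prkaca start peak (next 54.7), 68.1 CPM at the Prkar1a start peak (next 50.3), 27.6 CPM at the Prkar2b start peak (next 20.4), 19.6 CPM at the Prkar2a start peak (next 16.8) and 17.5 CPM at the first Prkacb start peak (next 13.8). It also had 4.19 CPM at the intragenic Prkar2a peak (next 2.78).

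The other 4 came from 4 animals. Animal 71, handled at 45 min, had 15.3 CPM at the first Prkacb start peak, where the next was 13.0. At the Prkar1a peak 3.1 kb before the gene the lowest values were 1.03 CPM in animal 1 (handled at 45 min, next 1.43) and 0.942 CPM in animal 23 (chronic at 45 min, next 1.31). Animal 20, handled at 0 min, had 0.690 CPM at the Prkar1b peak with the smallest p for chronic restraint, where the next was 1.16.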

How the results depend on the processing

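No paired analysis was possible because the animal numbers in the labels are unique and no 2 groups share them. No log2 change was called in the opposite direction under any alternative, though calls ended under several. Signs did change at start peaks with changes near 0. The averaged acute change did so in 7 of 13 alternatives at the Prkar2a start peak and in 4 at the Prkar1a start peak. The 2 acute calls among the 204 peaks, averaged over histories, became 1 without sex and batch in the model, with windows of 0 kb or 2 kb, and without batch 1, 2 or 3, and 0 in females alone and in males alone. With the share of counts in the top 1% of peaks as a covariate they became 3, the third being the Prkar2b peak 62.8 kb into the gene (-0.43). The 1 call in handled mice became 2 without animal 45, and 0 without any 1 of batches 1 to 4, in females alone and in males alone. The intragenic Prkar2a change stayed between -0.54 and -0.43 under these fits and the change past the gene end between 0.18 and 0.29. Leaving out each animal in turn gave -0.54 to -0.44 and 0.20 to 0.24. Over all peaks, 299 were called in the average, against 1763 with that covariate, 681 without animal 45, 525 with total count scaling, 200, 40 and 140 without batches 1, 2 and 3, and 20 and 105 in females and in males alone. Higher calls were 188 of the 299 and 498 of the 1763. The cause was not tested. Calls in the history, interaction and sex comparisons were 0 of 204 under every alternative run. Of the lists, cyclases and Gs had 2 calls without animal 45 (1 with all libraries) and phosphodiesterases 0 with DESeq2 (1 with edgeR).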
